A study of Mus musculus with 20 samples.

Results

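Transcripts of 10 genes of the Hippo pathway and of its TEAD transcription factors were followed in single cells of the mouse inner cell mass. The genes were Tead1, Tead2, Tead3, Tead4, Yap1, Wwtr1, Lats1, Lats2, Amot and Amotl1, out of 18193 genes on the array. They were chosen by name, with earlier results of these data known. Of the 34945 probe sets with a single annotated gene, 25 belonged to these 10, and each gene was read from its brightest probe set with the others as a check. All 20 arrays formed 1 group of C57BL/6 cells taken on embryonic day 3.5, without any treatment or mutation, and each array held the amplified cDNA of 1 cell. The series design states that 55 dissociated cells were picked and that 50 passed a PCR screen as positive for Oct4 and negative for Cdx2. Embryos are not named in the labels, so cells cannot be assigned to embryos and no p-value was computed over them.

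The Hippo pathway links cell contact and polarity to gene expression. The kinases LATS1 and LATS2 phosphorylate the coactivators YAP and TAZ (the product of Wwtr1), which then stay in the cytoplasm. Unphosphorylated YAP and TAZ enter the nucleus and act through TEAD proteins, which bind DNA. In the mouse blastocyst, outer cells have nuclear YAP and use TEAD4 to switch on trophectoderm genes such as Cdx2. In inner cells angiomotin (Amot) at cell junctions promotes LATS activity. The arrays measured transcripts only, so the place or phosphorylation of YAP was not observed.

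The cells were compared as 2 clusters of 10, made from 500 variable genes without these 10 genes, the pathway lists or the lineage marker lists. In the primitive endoderm-like cluster (cells 3, 4, 5, 6, 8, 10, 11, 15, 17 and 20) 7 of the 10 leading genes were primitive endoderm markers, among them Sox17, Pdgfra and Gata6. In the epiblast-like cluster (cells 1, 2, 7, 9, 12, 13, 14, 16, 18 and 19) 3 of the 10 were epiblast markers, Fgf4, Nanog and Klf2. Cell 6 joined the epiblast-like cluster when 250 genes or a single floor were used, and cells 6 and 10 did so without the filter on low values. Levels are log2 of the quantile-normalized intensity plus 8.75, and the lowest possible level is 3.29. The floor, set for each array from probe sets of genes not used in this tissue, lay between 6.68 and 7.43, and a gene above it is called detected in that cell. The floor averaged 7.04 in the primitive endoderm-like and 6.94 in the epiblast-like cells, so a gene below it everywhere shows a difference of 0.10 once values are raised to the floor. Per array, 23.2% to 29.1% of probe sets lay above it. Of 15 primitive endoderm markers detected in 3 or more cells, 12 were at least 2-fold higher in primitive endoderm-like cells (3.04% of all such genes were). Hnf4a (-0.96) and Apoe (-0.16) leaned the other way, and 4 of the 21 measured were detected in 0 cells. Of 12 such epiblast markers, 6 were at least 2-fold higher in epiblast-like cells (3.37% of all such genes were). Cell 19 had the lowest median deposited intensity, 14.97, against 25.6 to 30.1 in the other cells. Precision is limited by this floor and by there being 20 arrays.

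Most of the pathway was present in most cells. Of the 10 genes, 8 were detected in at least 10 cells, where 39.3% of all genes were, and 2 (Tead1 and Yap1) were detected in all 20 cells, where 16% of all genes were. Amotl1 was detected in 0 cells by any of its 3 probe sets, and Tead3 in 1 cell. Each cell had between 5 and 8 of the 10 genes detected, with a median of 7 in the primitive endoderm-like and 7 in the epiblast-like cells. Which genes count as detected depends on the probe set read, as the checks given with each gene show.

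**Figure D1:**
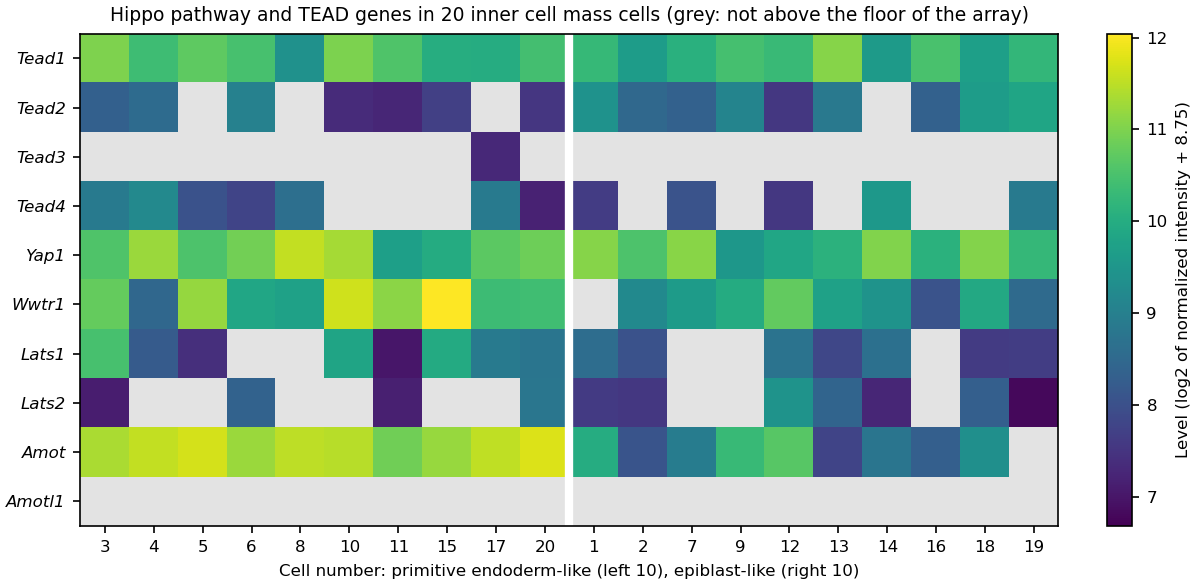
Level of each gene (rows) in each cell (columns), on a log2 colour scale, with grey where the cell was not above the floor of its array. Tead1 and Yap1 fill every column, Tead3 and Amotl1 are nearly or wholly grey, and Amot is brightest in the 10 primitive endoderm-like cells on the left.

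Among the TEAD factors, Tead1 was the one found in every cell. Its level was 9.40 at the lowest, 10.46 at the median and 11.02 at the highest in primitive endoderm-like cells, against 9.61, 10.25 and 11.07 in epiblast-like cells. The ranges overlapped almost wholly, and the means of 10.40 ± 0.49 and 10.19 ± 0.45 (SD, n = 10 cells each) differed by 0.21, less than the spread between cells. Among the 9871 genes detected in 3 or more cells, which are called tested below, its variance relative to the trend of variance on level lay at percentile 22.9, so it was more even than most genes of its level. A dimmer Tead1 probe set was read as detected in 10 cells and varied without relation to the first (r = -0.01 over 20 cells), and with the mean of both the difference changed sign, to -0.23.

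Tead2, a factor of the same family that is active in early embryos, leaned towards the epiblast-like cells. Its lowest, median and highest levels were 5.96, 7.44 and 9.04 in primitive endoderm-like cells, against 5.98, 8.67 and 9.83 in epiblast-like cells. It was detected in 7 primitive endoderm-like and 9 epiblast-like cells, and 4 epiblast-like cells exceeded every primitive endoderm-like cell, while the other values overlapped. Once low values were raised to the floor, the difference was -0.91 (primitive endoderm-like minus epiblast-like), which is 1.88-fold higher in epiblast-like cells and within the larger SD of 0.96. Tead2 has a single probe set on the array, so no second reading was at hand.

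Tead4, the TEAD factor required for the trophectoderm, was on in some cells of both clusters. It was detected in 7 cells of the primitive endoderm-like cluster and in 5 of the epiblast-like cluster. Its lowest, median and highest levels were 4.28, 7.91 and 9.21 in primitive endoderm-like cells, against 3.29, 7.13 and 9.55 in epiblast-like cells. The clusters overlapped throughout, and the difference of 0.24 with values raised to the floor was well inside the SDs of 0.91 and 0.89. With the values under the floor left as read, the difference was 1.08, and without cells 4, 8, 17 and 20 it was -0.11. A second Tead4 probe set gave detection in 4 cells. Of Tead2 and Tead4, 8 cells had both detected, 8 had Tead2 alone, 4 had Tead4 alone and 0 had neither. Because Tead2 was undetected in only 4 cells, at most 4 could have had neither. Over the other settings Tead2 was detected in as few as 9 cells and Tead4 in as few as 6, so these counts depend on the processing. Tead3 reached 7.31 in cell 17 and was not detected in the other cells, of which the highest, at 6.86, was epiblast-like. By number of TEAD genes detected, 11 cells had 2 and 9 cells had 3, and those with 3 were 5 primitive endoderm-like and 4 epiblast-like cells.

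Levels of trophectoderm genes are given beside Tead4 because that factor acts there. Of 12 measured trophectoderm markers, 5 (Gata3, Elf5, Krt7, Krt19 and Atp12a) were detected in 0 of 20 cells, where 36.5% of all genes were. Others read above the floor. Hand1 did so in all 20 cells at a flat 13.70 ± 0.08, with 13.78 as both median and highest level in primitive endoderm-like cells. Cdx2 did so in 9 primitive endoderm-like and 8 epiblast-like cells, at 7.43 ± 0.35 over the 20, near the floor. The design, however, states a PCR screen for cells negative for Cdx2. Whether these Hand1 and Cdx2 readings are transcript or background was not tested. Tfap2c, which encodes a transcription factor, was detected in 5 primitive endoderm-like and 8 epiblast-like cells and differed by -1.29. Krt18 was detected in 1 and 1 cell, and Lgals3 in 0 and 5. The transcription factor gene Eomes was detected in 6 primitive endoderm-like and 3 epiblast-like cells, and the keratin gene Krt8 in 5 and 4. The trophectoderm score, the mean of the 6 tested markers centred per gene, ran from -1.18 to 0.93 in primitive endoderm-like cells and from -1.87 to 1.47 in epiblast-like cells. A part of trophectoderm genes in the Tead4 levels was not tested.

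**Figure D2:**
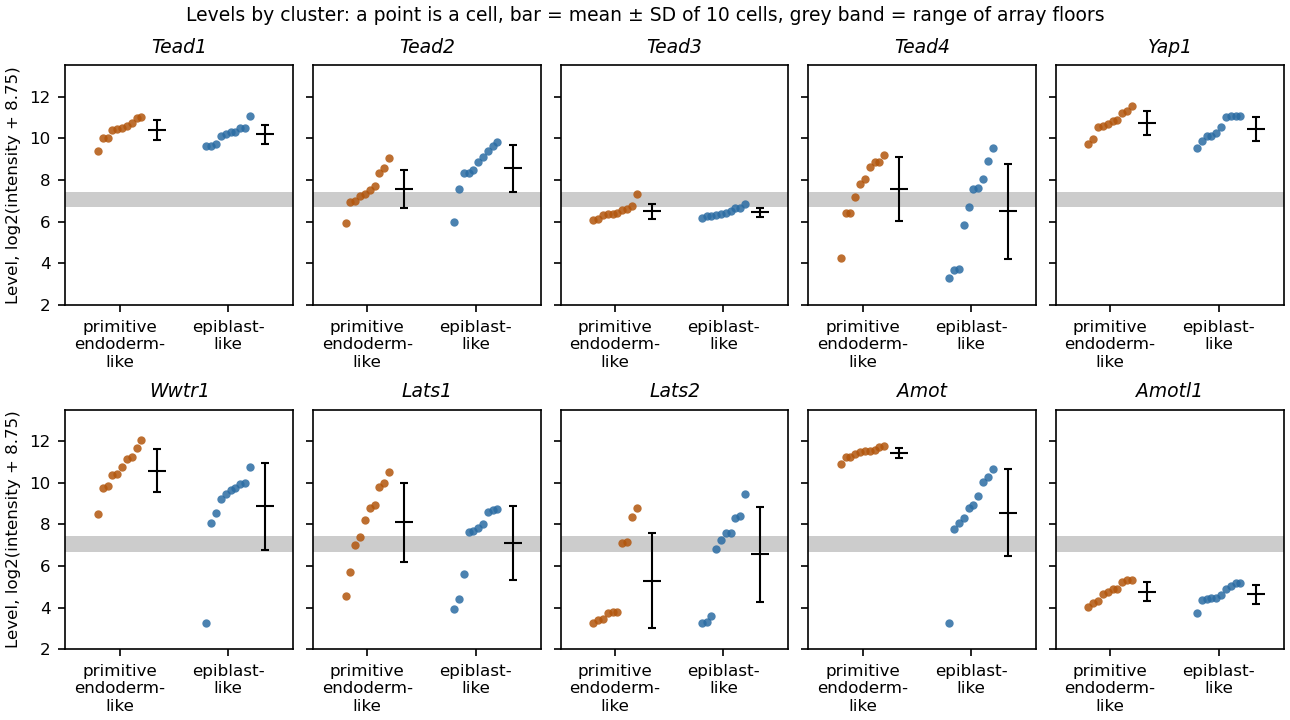
Level of each gene by cluster (log2 scale, 1 point per cell, bar for mean and SD of 10 cells, grey band for the range of array floors). Amot is the 1 gene of the 10 whose clusters do not overlap, with 10.89 or more in every primitive endoderm-like cell and 10.65 or less in every epiblast-like cell.

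The coactivators behaved differently from each other. Yap1 was in every cell, with 9.70, 10.77 and 11.55 as the lowest, median and highest level in primitive endoderm-like cells, against 9.52, 10.41 and 11.09 in epiblast-like cells. Only 3 primitive endoderm-like cells exceeded all epiblast-like cells, and the difference of 0.27 was under the SD of 0.58 in each cluster. A second Yap1 probe set, with detection in 15 cells, differed by -0.27, and with the mean of both the difference was -0.10, so its sign depends on the probe set.

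Wwtr1, which encodes TAZ, was higher in the primitive endoderm-like cells by its brightest probe set. Its levels there were 8.48, 10.59 and 12.04 (lowest, median and highest), against 3.29, 9.53 and 10.76 in epiblast-like cells. The clusters overlapped in part, as 5 primitive endoderm-like cells exceeded every epiblast-like cell and the other 5 lay within their range. With values raised to the floor the difference was 1.35, or 2.56-fold, which was larger than the SDs of 1.04 and 1.14. Cell 1, epiblast-like, was at the lower limit of the deposited values by this probe set, and without it the difference was 1.09. The probe sets disagreed in size. A second, with detection in 16 cells, differed by 0.77 and followed the first over the cells (r = 0.75, n = 20), while the third read 9.63 ± 0.43 in all 20 cells and differed by 0.08. With the mean of the 3 probe sets the difference was 0.84.

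The gene with the clearest pattern was Amot. It encodes angiomotin, a junction protein that holds YAP in the cytoplasm and promotes its phosphorylation by LATS. In the primitive endoderm-like cells its level was even, with 10.89 at the lowest, 11.49 at the median and 11.76 at the highest, against 3.29, 8.85 and 10.65 in epiblast-like cells. The lowest primitive endoderm-like cell (cell 11) was above the highest epiblast-like cell (cell 12), so the clusters did not overlap. Of the 9871 genes tested, 0.132% had every primitive endoderm-like cell above every epiblast-like cell, and 0.0912% the reverse. With values raised to the floor the means were 11.42 ± 0.25 and 8.89 ± 1.23 (SD, n = 10 each), a difference of 2.53 or 5.80-fold. Amot ranked 24 of 9871 genes by this difference. Its variance over the trend, taken on levels as read, lay at percentile 99.5. That variance includes cell 19 at the lower limit of 3.29. The SD over the 20 cells was 2.06 as read and 1.56 with values raised to the floor. Among the epiblast-like cells, cell 19 was not above the floor by the brightest probe set, and cell 13 was next at 7.78. Cells 1, 9 and 12 came nearest to the other cluster at 10.01, 10.29 and 10.65.

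The Amot difference rests on 1 of 3 probe sets. The brightest carried it. Another gave detection in 0 cells, and the remaining one averaged 7.25 ± 0.27 over the 20 cells, near the floor, with a difference of -0.15 and r = -0.71 with the brightest. With the mean of the 3 probe sets the difference was 0.59 and 6 of 10 primitive endoderm-like cells exceeded every epiblast-like cell. Where on the transcript each probe set lies was not examined. Cell 19, at the lower limit by the brightest Amot probe set, read 8.08 by the remaining one. It also had the lowest median intensity, and without it the difference was 2.28 with all steps repeated. Where cell 6 was counted as epiblast-like (250 clustering genes), 7 of 9 primitive endoderm-like cells exceeded the others and the difference was 2.34. With no filter on low values, cells 6 and 10 were counted as epiblast-like, 5 of 8 exceeded the others and the difference was 2.14.

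**Figure D3:**
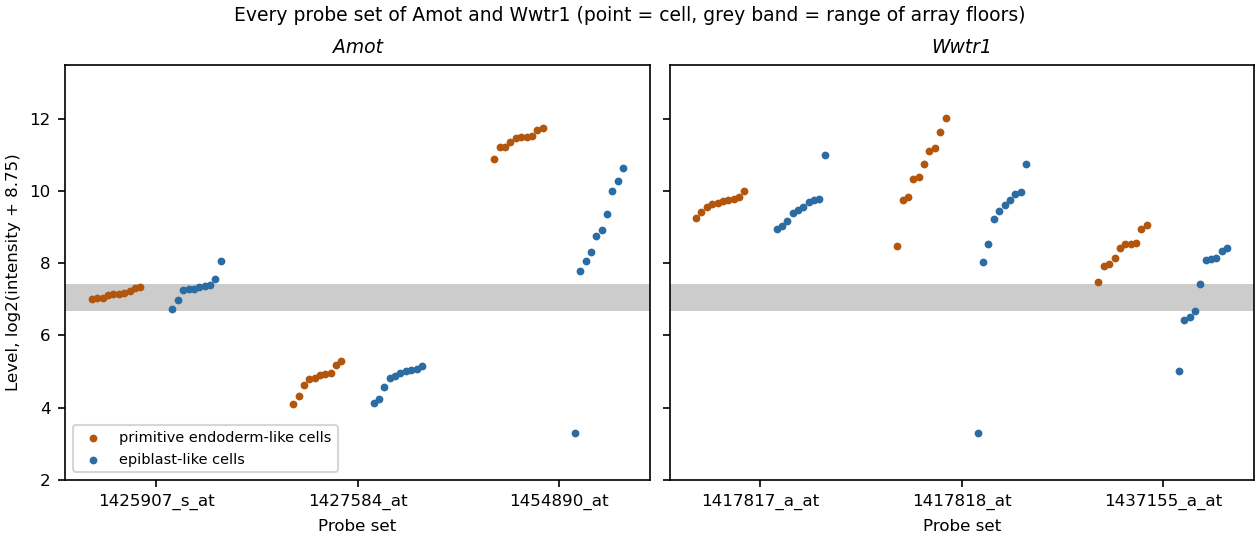
Every probe set of Amot (left) and Wwtr1 (right) by cluster, on the log2 scale with 1 point per cell and the range of array floors in grey. Of the 3 Amot probe sets, 1 separates the clusters, and 2 of the 3 Wwtr1 probe sets lean the same way while the other is flat.

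Of the 10 genes, Amot and Wwtr1 were at least 2-fold higher in the primitive endoderm-like cells (2 genes, where 3.04% of the 9871 tested genes were) and 0 were at least 2-fold higher in the epiblast-like cells (3.37% of tested genes). The filter for this comparison was passed by 8 of the 10, all but Tead3 and Amotl1. As read, without the floor, Tead4 and Lats2 also passed 2-fold, in opposite directions. The promoters of Amot and Wwtr1 are shown because these are the genes that passed 2-fold. Wwtr1 has 2 start sites in the table, and the upstream one is given. RefSeq (GRCm38.p6) gives 250 bases before the start site of Amot, on the minus strand at chrX:145487640-145487889, and of Wwtr1, on the minus strand at chr3:57575911-57576160. Capitals mark matches, on either strand, to CATTCC, the core bound by TEAD proteins, and to AGATAA, with T also allowed as its first letter and G as its last, which GATA factors bind.
Amot: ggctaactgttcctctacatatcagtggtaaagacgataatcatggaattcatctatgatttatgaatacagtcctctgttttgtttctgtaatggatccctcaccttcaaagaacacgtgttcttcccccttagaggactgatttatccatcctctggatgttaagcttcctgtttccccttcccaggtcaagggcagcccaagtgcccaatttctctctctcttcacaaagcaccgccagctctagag
Wwtr1: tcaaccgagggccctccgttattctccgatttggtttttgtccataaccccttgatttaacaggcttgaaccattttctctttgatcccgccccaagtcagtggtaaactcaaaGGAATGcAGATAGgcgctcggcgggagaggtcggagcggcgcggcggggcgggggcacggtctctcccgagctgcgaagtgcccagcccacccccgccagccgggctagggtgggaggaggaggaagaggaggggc
The Wwtr1 sequence holds both kinds of match side by side, starting 136 and 129 bases before the start site, and the Amot sequence holds neither. Of 32851 RefSeq promoters, 12.6% hold CATTCC and 26.5% hold a GATA match in the same 250 bases. These describe letters, not binding. The table held 12 promoters of 8 of the 10 genes (not Tead1 and Tead4), of which those of Yap1 and 2 of Tead3 also hold CATTCC and that of Amotl1 a GATA match.

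Over all 20 cells the level of Amot, raised to the floor, had r = 0.80 with the primitive endoderm score (Spearman correlation 0.76). With the epiblast score it had r = -0.77 (Spearman correlation -0.81). The scores are means of 15 and 12 centred markers from the same arrays, with marker levels as read. The cells fall into separate groups on these scores, so the values over all cells mostly restate the clusters. Within them, r with the primitive endoderm score was 0.15 over the 10 primitive endoderm-like cells (0.52 without the 2 cells farthest from the median) and 0.06 over the 10 epiblast-like cells (-0.28 without 2).

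**Figure D4:**
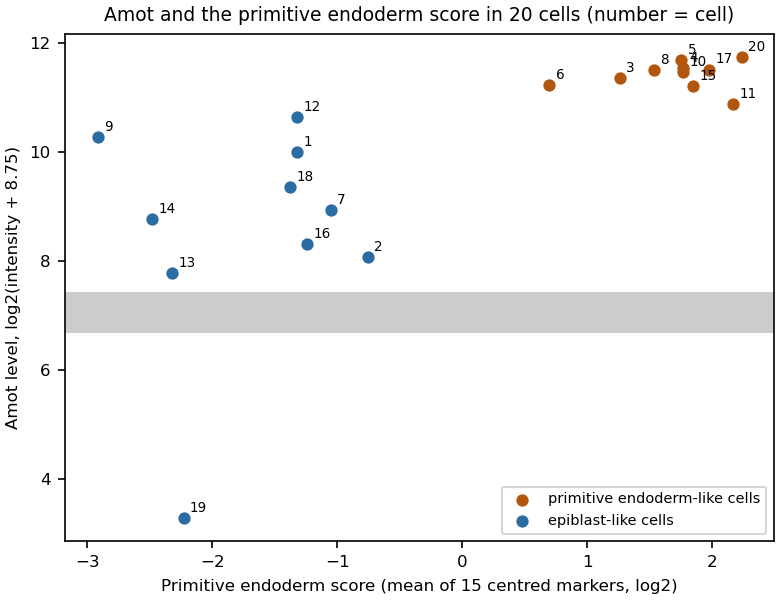
Amot level (y axis, log2) against the primitive endoderm score (x axis, log2, mean of 15 centred markers) with 1 numbered point per cell. The 10 primitive endoderm-like cells lie at 10.89 to 11.76, and the epiblast-like cells scatter from 3.29 to 10.65.

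The kinase genes were found in part of the cells. Lats1 was detected in 8 primitive endoderm-like and 7 epiblast-like cells. Its lowest, median and highest levels were 4.58, 8.49 and 10.49 in primitive endoderm-like cells, against 3.95, 7.74 and 8.72 in epiblast-like cells. The 5 brightest primitive endoderm-like cells exceeded every epiblast-like cell and the rest overlapped, with a difference of 0.66 against SDs of 1.31 and 0.68. The other Lats1 probe set gave detection in 0 cells. Lats2 was detected in 4 primitive endoderm-like and 7 epiblast-like cells, with 3.29, 3.80 and 8.79 against 3.29, 7.41 and 9.44 as lowest, median and highest level. The clusters overlapped, and the difference of -0.23 with values raised to the floor was inside the SDs of 0.64 and 0.84. That sign turned with the floor at the 99th percentile (0.05) and when its probe sets were averaged (0.10). Of the 5 other Lats2 probe sets, 3 gave detection in 0 cells and 2 in 1 cell each, so Lats2 rests on 1 probe set. A further probe set that is annotated to Lats2 and to a second gene was not used.

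Read together, the LATS genes gave a pattern by cluster. Among primitive endoderm-like cells, 3 had both genes detected, 6 had 1 of them and 1 had neither. Among epiblast-like cells, 7 had both, 0 had 1 and 3 had neither. Lats2 without Lats1 was seen in 1 of 20 cells. These counts rest on levels close to the floor, and with the floor at the 99th percentile Lats1 was detected in 8 cells and Lats2 in 4. The difference between the clusters was not tested.

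Other genes of the pathway were taken from lists that were chosen with earlier results of these data known. Of 9 tested core kinase genes, 0 were at least 2-fold higher in primitive endoderm-like and 1 in epiblast-like cells (3.04% and 3.37% of all tested genes), with a median difference of -0.07, against 0.02 over all tested genes. The 1 was Stk38, which encodes a kinase related to LATS. It was detected in all 20 cells, with 9.64, 10.06 and 11.34 as lowest, median and highest level in primitive endoderm-like cells, against 11.26, 11.55 and 11.91 in epiblast-like cells. Of the epiblast-like cells, 9 exceeded every primitive endoderm-like cell, and the difference was -1.31, against SDs of 0.63 and 0.22. It rests on 1 of 3 probe sets, as the other 2 gave detection in 0 cells. Its relative Stk38l differed by -0.63, Map4k4, an upstream kinase, by 0.59, and Taok1, another, by -0.03. Mob1a, the LATS coactivator, read 10.80 ± 0.41 and 10.87 ± 0.26, and Sav1, the scaffold of the MST kinases, was detected in 3 and 5 cells. Stk3 was not analysed here.

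Of 10 tested upstream scaffolds and inhibitors, 1 was at least 2-fold higher in primitive endoderm-like cells (3.04% of all tested genes were). Another 1 was so in epiblast-like cells (3.37% of all tested genes were), and the median difference was 0.10. Frmd6, a FERM-domain protein upstream of the cascade, was lower in primitive endoderm-like cells, with 5.97, 7.21 and 8.56 there against 4.84, 9.29 and 10.29 in epiblast-like cells. Its difference of -1.74 was larger than the SDs of 0.46 and 1.03 on the same raised scale, though the ranges overlapped. Wtip, a LIM-domain protein that restrains LATS, was higher in primitive endoderm-like cells, with 7.69, 9.60 and 11.70 against 3.29, 7.78 and 9.67. Its difference was 1.54, and it was detected in 10 primitive endoderm-like and 6 epiblast-like cells. Nf2, whose product merlin brings LATS to the membrane beside angiomotin, was steady at 10.64 ± 0.21 and 10.54 ± 0.17. Ptpn21 (-0.27), Csnk1d (0.20) and Csnk1e (-0.06) lay close to 0, and Amotl2, the third angiomotin gene, was detected in 1 cell. Of the vestigial-like TEAD cofactors, Vgll1, Vgll3 and Vgll4 were detected in 0 cells and Vgll2 in 7.

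The 14-3-3 genes, whose products hold phosphorylated YAP in the cytoplasm, were detected throughout with 1 exception. All 7 were tested, 6 were detected in all 20 cells, and 0 were at least 2-fold higher in primitive endoderm-like or in epiblast-like cells (3.04% and 3.37% of all tested genes), with a median of -0.06. Ywhaz, for example, read 12.02 ± 0.22 and 12.01 ± 0.22, Ywhae 12.50 ± 0.16 and 12.57 ± 0.11, and Ywhab 12.10 ± 0.21 and 11.95 ± 0.29, in primitive endoderm-like and epiblast-like cells. Ywhag and Ywhaq differed by -0.18 and -0.32. The exception was Sfn, detected in 4 primitive endoderm-like and 9 epiblast-like cells, of which 6 exceeded every primitive endoderm-like cell. It differed by -0.68, or -1.16 as read.

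Genes of the apical polarity complex and of cell junctions are given singly. Prkci encodes an atypical protein kinase C of the apical complex that excludes angiomotin from junctions of polar cells. Its levels were 11.53, 11.84 and 12.13 in primitive endoderm-like cells, against 10.15, 10.74 and 11.40 in epiblast-like cells, without overlap, and the difference was 1.12 by the brightest probe set. Its second probe set, with detection in 5 cells, differed by 0.32. Its partner gene Pard6b went the other way, detected in 2 primitive endoderm-like and 8 epiblast-like cells, with a difference of -1.14 (-0.94 by its other probe set, and -0.97 without cell 19). Prkcz, the second atypical kinase gene, was detected in 3 and 8 cells and differed by -0.95. Cdh1, which encodes E-cadherin, read 11.76 ± 0.19 and 11.30 ± 0.23, a difference of 0.47 that exceeded the spread. Crb3 differed by 0.01 and Ctnna1 by -0.18.

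The 12 tested target genes of YAP and TEAD are known mostly from cultured cells of other tissues. Of these, 1 was at least 2-fold higher in primitive endoderm-like cells (3.04% of all tested genes were) and 1 in epiblast-like cells (3.37%). Their median difference was 0.05. Of 22 measured, 7 were detected in 0 cells, among them Ccn2 and Ankrd1 (36.5% of all genes were), and 4 in all 20 cells (16% of all genes were). Ccn1 was detected in 2 primitive endoderm-like and 2 epiblast-like cells. Nt5e, a cell surface nucleotidase, was detected in 7 primitive endoderm-like and 0 epiblast-like cells by 1 of 3 probe sets. Its difference with values raised to the floor was 1.86, or 3.63-fold. With values as read, its mean in primitive endoderm-like cells was 1.87-fold above the mean floor of the epiblast-like cells. Myc, a growth-promoting transcription factor, was lower in primitive endoderm-like cells, with 3.93, 8.48 and 10.81 against 7.62, 10.20 and 11.08 and a difference of -1.36, against SDs of 1.28 and 1.31 on the same raised scale. Birc5 (0.08), Crim1 (-0.12), Fjx1 (0.20) and Ccdc80 (-0.02) were detected in all 20 cells and nearly level, and Dock5 differed by -0.80.

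**Figure D5:**
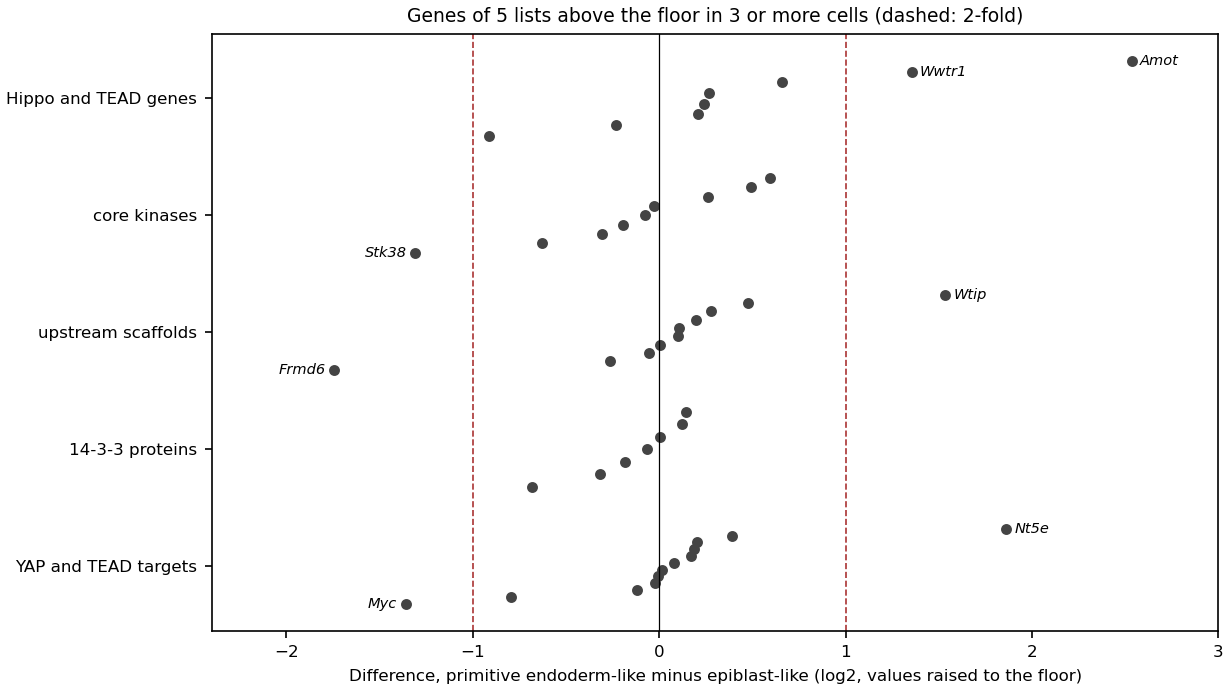
Difference in mean level between the clusters (x axis, primitive endoderm-like minus epiblast-like, log2, values raised to the floor) for the tested genes of 5 lists, 1 point per gene. Most genes lie between the dashed 2-fold lines, and those outside are named, with Amot farthest at 2.53.

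Within the clusters, few pairs of these genes had a high r over all 10 cells. Pairs were made of 8 genes, without Tead3 and Amotl1. Of these 28 pairs, 4 had an absolute r over 0.5 within the primitive endoderm-like and 2 within the epiblast-like cells. Over the 10 primitive endoderm-like cells, Tead4 and Wwtr1 had r = -0.69 (Spearman correlation -0.62), and r = -0.57 without the 2 cells farthest from the median Tead4 level. Over the 10 epiblast-like cells, Tead1 and Yap1 had r = -0.61 (Spearman correlation -0.62, and r = -0.60 without 2 cells). That value holds for the brightest probe set of each gene only. Over all cells, the other Tead1 probe set had r = -0.01 with the brightest, and the other Yap1 probe set had r = -0.25. Whether Tead1 and Yap1 are related by the other probe sets was not tested. Over the epiblast-like cells Lats1 and Lats2 had r = 0.54 (Spearman correlation 0.62), which fell to 0.47 without 2 cells. Yap1 with Amot (r = 0.62), with Wwtr1 (-0.56) and with Tead4 (0.54), over the primitive endoderm-like cells, fell to -0.09, -0.34 and 0.26 without 2 cells. Other pairs rose when 2 cells were left out. Over the epiblast-like cells Wwtr1 with Amot had r = 0.24 (Spearman correlation 0.49), and 0.89 without 2 cells. Wwtr1 with Lats2 went from 0.49 to 0.75 there. Over the primitive endoderm-like cells Tead2 with Lats1 went from 0.03 to 0.72. Such values therefore depend on which cells are kept. The levels in a pair come from the same arrays and normalization. Yap1 had r = -0.88 with the share of probe sets above the floor over the primitive endoderm-like cells (Spearman correlation -0.77) and Amot r = -0.71 (Spearman correlation -0.53), and the part of array quality in their levels was not tested.

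The genes most like each of these over the 20 cells, by Pearson's r on values raised to the floor, were as follows. For Amot they were Gpat3 (r = 0.84), a glycerol phosphate acyltransferase gene, Pdgfra (0.84) and Sox17 (0.83), of which Pdgfra and Sox17 are primitive endoderm markers. For Wwtr1 they were Cul1 (0.76), Sash1 (0.68) and the metallothionein gene Mt1 (0.68), of which Sash1 and Mt1 were among the genes that made the clusters. For Yap1 they were Heatr1 (0.78), the nuclear pore gene Ranbp2 (0.71) and C030013C21Rik (0.70). For Tead2 they were the potassium channel gene Kcnk5 (0.78), Gm21283 (0.77) and Gsta4 (0.74), and for Tead4 Serf1, Stx16 and Tmc8 (0.70, 0.70 and 0.67). For Lats1 they were Dbt, Trp53bp2 and Spred2 (0.77, 0.69 and 0.64), and for Lats2 Rbks, Fmn2 and Hyls1 (0.84, 0.75 and 0.72), of which Rbks was detected in 4 cells and Hyls1 in 3. With 9871 genes and 20 cells such values are the top of a long list and describe these cells only.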

How the data were processed

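Amplified cDNA of 20 single cells was labelled by the one-cycle Affymetrix method, per the labels' protocols. The authors deposited an intensity per probe set on a linear scale, and the sources used here do not give the software, background correction or scaling behind it. Control probe sets (64) were left out, arrays were quantile-normalized, and levels are log2(intensity + 8.75), with a pseudocount equal to the median 25th percentile of the deposited intensity. The floor is the 95th percentile, per array, over 162 probe sets for genes of other tissues and for chemosensory receptors. Probe sets were named from GEO's platform annotation, updated through RefSeq.

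Cells were clustered by Ward's method (scipy 1.17.1, Python 3.11.15) on the 500 genes of largest variance over a lowess trend (statsmodels 0.14.6), without members or listed genes. Differences use values raised to the floor, and a difference of 1 (2-fold) was called. With 1 group of cells of unnamed embryos there was no test over cells, and SDs measure the spread between cells, which may be technical in part. The difference and likeness steps were tested on simulated levels with less spread than the data. Planted differences there were larger than that of Amot. Normalization, floor setting and clustering were not tested in this way. Members and lists were chosen with earlier results of these data known. The text names every member, in each pathway list the 3 genes with the largest and the 1 with the smallest difference among those detected in 10 or more cells and up to 3 detected in all cells, chosen lineage markers, and the 3 tested genes most like each member that was detected in 5 or more cells with an SD of at least 0.5. Other genes were named after their values were seen: Sav1, Stk3, Amotl2, Nt5e, Ccn1, Ccn2, Ankrd1, the vestigial-like genes, the further markers leading a cluster and further trophectoderm markers. Alternatives covered normalization, pseudocount, floor, probe set choice, clustering and cells left out. Array pairs with r over 0.99 numbered 0. The counts of 1 further list are not reported here.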

Additional observations from a re-analysis of the deposited data

Results flagged for a closer look

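In the 16 sets of 10 cells examined (8 genes in each cluster), 2 held a cell far from the others. For normally distributed values chance gives about 1 in 20 such sets, and values cut at a lower limit need not follow that rate. Wwtr1 in cell 1 was 3.29, with the next epiblast-like cell at 8.05. Amot in cell 19 was 3.29, with the next epiblast-like cell at 7.78. Both cells were at the lower limit of the deposited values for that probe set.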

How the results depend on the processing

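The count of genes detected in at least 10 cells was 8, and it was 4 with the floor at the 99th percentile and 5 with the mean of all probe sets. The count of genes at least 2-fold different between the clusters was 2, and it was 4 with values under the floor as read and 0 with the mean of all probe sets. The cause was not tested. In the other settings run both counts stayed within 1.5 times. Leaving out each cell in turn, a choice made after seeing the data as was 1 floor with the clusters kept, gave 8 to 8 and 2 to 3 for these counts, the added gene being Tead2, without cell 4, 6, 12 or 14. With normalization, floors and clusters kept as they were, the Amot difference then ranged from 2.29 to 2.73 and the Wwtr1 difference from 1.09 to 1.59. Over the other settings Amot ranged from 0.59 to 2.87 and Wwtr1 from 0.84 to 1.90, the highest without cells 4, 8, 17 and 20, which stood apart in earlier results. Small differences changed sign with the mean of all probe sets for Tead1 (-0.23), Yap1 (-0.10) and Lats2 (0.10), without those 4 cells for Tead4 (-0.11), and with the floor at the 99th percentile for Lats2 (0.05). Genes near the floor are limited by it most. No paired analysis was possible because all cells belong to 1 group.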
